A study of Mus musculus with 8 samples.

Results

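MicroRNAs of the Hox clusters, miR-10a, miR-10b, miR-196a and miR-196b, were examined in CD34+/CD105- cells that had been sorted out of mouse renal arteries. An assay belonged to this set if its name, without species prefix and catalogue number, was miR-10a, miR-10b, miR-196a or miR-196b, leaving out the passenger-strand assays marked #. This gave 5 of 750 miRNA assays: mmu-miR-10a, hsa-miR-196a, mmu-miR-196b and 2 assays for mmu-miR-10b. The cells came from 4 mice whose renal arteries were both clamped and then released (ischemia/reperfusion) and from 4 mice after sham surgery, and the comparison asks how these miRNAs differ after renal ischemia/reperfusion. Both groups were sorted the same way, for CD34, which progenitor and endothelial cells carry, and against CD105 (endoglin), which is found on stromal and endothelial cells. For strain, age, clamp time and time of reperfusion, no value was given in the sources used here.

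Hox genes encode transcription factors that set position along the body axis, and adult vascular cells keep a Hox expression pattern that reflects their place of origin. The miR-10 and miR-196 genes lie inside the Hox clusters and are known to repress Hox mRNAs: in mouse, for example, miR-196 directs cleavage of the Hoxb8 mRNA. In human aortic endothelial cells miR-10a restrains NF-kB signalling, and in zebrafish miR-10 promotes the growth of new vessels.

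The mature sequences are shown because miR-10a and miR-196a gave a signal while their near-identical partners gave none. They are RefSeq sequences on GRCm38.p6, matched by name for all 4 miRNAs and printed 5′ to 3′, with the seed (bases 2 to 8, the part that pairs with target mRNAs) in capitals. The assays' own target sequences were not used here.
miR-10a-5p: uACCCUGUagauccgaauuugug
miR-10b-5p: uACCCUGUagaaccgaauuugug
miR-196a-5p: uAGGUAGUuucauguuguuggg
miR-196b-5p: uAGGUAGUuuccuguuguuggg
miR-10a and miR-10b share 22 of 23 bases and differ by U12A, counted from 1 at the 5′ end with the miR-10a base first. miR-196a and miR-196b share 21 of 22 bases and differ by A12C, counted the same way with the miR-196a base first. Both differences lie outside the seed, so each pair has the same seed. Among the 1679 mature mouse miRNA names in the RefSeq table, 2 had the miR-10 seed and 2 had the miR-196 seed, and these were the 4 miRNAs examined here.

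On GRCm38.p6, mature miR-10a lies on the plus strand at chr11:96317186-96317208, inside the span of Hoxb3 and between Hoxb5 and Hoxb4. Mature miR-196a has 2 gene copies with the same mature sequence. The Mir196a-1 copy is on the plus strand at chr11:96265187-96265208, between Hoxb13 and Hoxb9, and its hairpin is 51899 bases from that of miR-10a in the same Hoxb cluster. The Mir196a-2 copy is on the plus strand at chr15:102973365-102973386, between Hoxc10 and Hoxc9. An assay for mature miR-196a cannot tell these copies apart. Mature miR-10b is on the plus strand at chr2:74726074-74726096, inside the spans of Hoxd3 and Hoxd4, and mature miR-196b is on the minus strand at chr6:52230129-52230150, between Hoxa9 and Hoxa10.

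The readout was the threshold cycle (Ct) of real-time PCR; a lower Ct means more RNA. An assay counted as detected below Ct 35. miRNAs detected below Ct 35 numbered between 82 and 98 in ischemia/reperfusion mice and between 75 and 163 in sham mice. The 54 miRNAs below Ct 35 in all 8 mice, called always-detected here, had a mean Ct between 27.7 and 28.1 in ischemia/reperfusion mice and between 24.8 and 28.4 in sham mice. Mouse 2 had the fewest detected miRNAs of its group in both groups, with 82 after ischemia/reperfusion and 75 after sham surgery. In mice 1, 3 and 4, which gave a Ct for miR-10a and miR-196a, these numbers separated the groups. They were 98, 91 and 88 after ischemia/reperfusion, against 127, 142 and 163 after sham surgery. The mean Ct of the always-detected miRNAs was 28.0, 27.7 and 28.1 in these ischemia/reperfusion mice, against 26.2, 25.8 and 24.8 in these sham mice. The endothelial markers miR-126-3p and miR-126-5p were detected in all 8 mice, with a log2 of their summed level between -5.79 and -4.72 in ischemia/reperfusion mice and between -4.73 and -3.14 in sham mice. The erythroid markers miR-144 and miR-451 had no Ct in any mouse. Of 11 assays for epithelial and kidney tubule markers, between 0 and 2 were detected in ischemia/reperfusion mice and between 0 and 4 in sham mice. miR-203 and miR-204 were each detected in 2 ischemia/reperfusion and 3 sham mice, miR-194 in 2 sham mice and miR-192 in 1 sham mouse. The log2 of their summed level lay between -6.04 and -1.46 in the sham mice with a Ct. For ischemia/reperfusion mice this range is not given. miR-200a, miR-200b, miR-200c, miR-141 and miR-429 had no Ct in any mouse. Of 5 leukocyte assays, between 3 and 4 were detected in mice of both groups, and the log2 of their summed level lay between -9.10 and -4.06 in ischemia/reperfusion mice and between -8.74 and -5.51 in sham mice. Of 3 smooth muscle assays, between 1 and 2 were detected in ischemia/reperfusion mice and between 1 and 3 in sham mice, with a log2 summed level between -11.76 and -10.42 and between -11.27 and -8.38 in that order. Of 5 assays for fibroblast and mesenchymal markers, between 3 and 4 were detected in ischemia/reperfusion mice and between 2 and 4 in sham mice. The log2 of the summed level of these mesenchymal markers lay between -6.74 and -5.45 in ischemia/reperfusion mice and between -7.75 and -4.08 in sham mice. The part of the number of detected miRNAs in the results was not tested. In sorted samples of this kind, fewer cells of a type and less RNA per cell cannot be told apart.

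In these cells miR-10a and miR-196a gave a Ct in 3 of 4 mice of each group, while miR-10b and miR-196b gave no Ct in any mouse. Below Ct 35, miR-10a was detected in 2 of 4 ischemia/reperfusion mice and 3 of 4 sham mice. A Ct was recorded for 2 of the 5 assays, beside 210 of all 750 miRNA assays (28%), and for 12 of the 40 wells. The other 28 wells were undetermined. miR-10b, which is encoded in the Hoxd cluster and represses HOXD10 in human breast cancer cells, was undetermined in 4 of 4 ischemia/reperfusion mice and 4 of 4 sham mice with both of its assays, which sat on different cards. The cards are the 2 series of catalogue numbers in the data, each with its own reference value, and are called A and B here. miR-196b, which is encoded next to Hoxa9, a gene active in early blood cells, was likewise undetermined in all mice. An undetermined well gives an upper limit on the level and not an absence, and the highest Ct recorded anywhere in these data was 39.8.

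**Figure D1:**
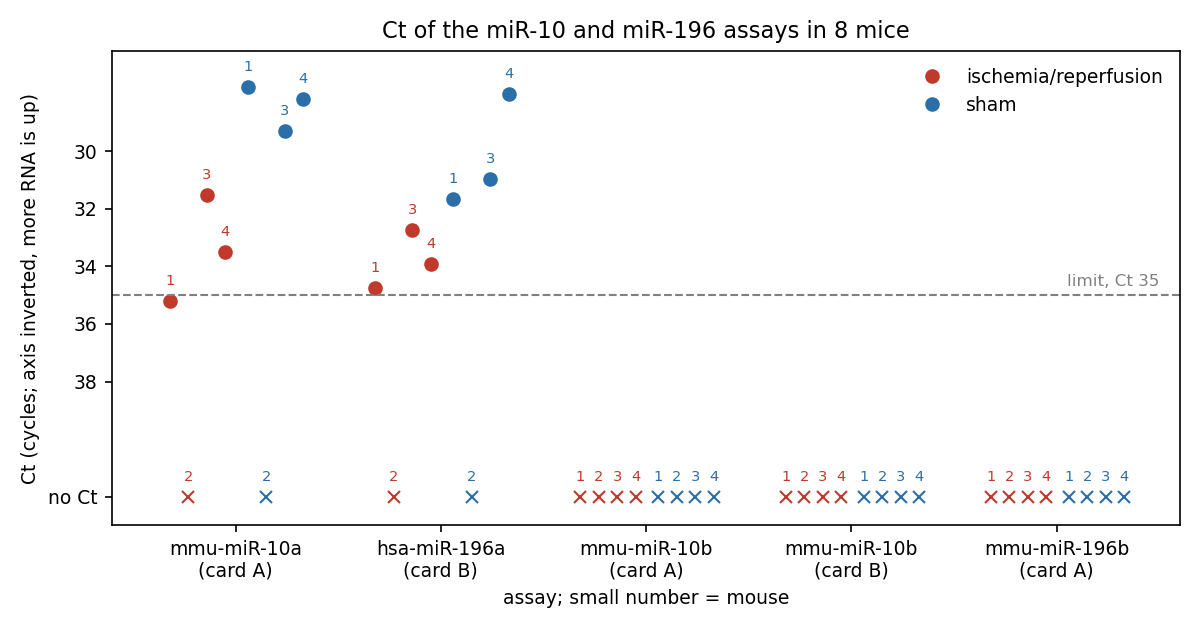
Ct in cycles (vertical axis, inverted so that more RNA is up) for the 5 assays in 4 ischemia/reperfusion mice (red) and 4 sham mice (blue); each point is a mouse, numbered, and a cross marks a well with no Ct. All 3 ischemia/reperfusion points of mmu-miR-10a and hsa-miR-196a lie below all 3 sham points, and mouse 2 of both groups has no Ct for either.

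miR-10a had Ct values of 35.2, 31.5 and 33.5 in ischemia/reperfusion mice 1, 3 and 4, against 27.7, 29.3 and 28.2 in sham mice 1, 3 and 4. It had no Ct in mouse 2 of either group. Against the deposited reference, the level on the log2 scale (minus delta Ct, the reference Ct minus the assay Ct) was -14.19, -11.01 and -11.82 in ischemia/reperfusion mice 1, 3 and 4, against -7.10, -10.30 and -10.25 in sham mice 1, 3 and 4. Among the mice with a Ct the groups did not overlap. The gap between ischemia/reperfusion mouse 3 and sham mouse 3 was 0.71 log2 units. Such a separation was seen for 10 of 98 miRNAs (10.2%) with at least 3 Ct values in each group. Mouse 2 is not in this comparison. Placed at Ct 35, sham mouse 2 would lie below ischemia/reperfusion mice 3 and 4, and the groups would overlap. Sham mouse 1 stood above the other sham mice and ischemia/reperfusion mouse 1 below the others of its group.

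Because ischemia/reperfusion mouse 1 was above Ct 35, miR-10a was detected in 2 of 4 ischemia/reperfusion mice and 3 of 4 sham mice, and it fell short of the 3 detected mice per group that the test required. Over the wells below Ct 35 its log2 difference, ischemia/reperfusion minus sham, was -2.20, with no test. With any Ct counted as detected, the mean level was -12.34 ± 1.65 in ischemia/reperfusion mice and -9.21 ± 1.83 in sham mice (SD, n = 3 each). The log2 difference was then -3.13 ± 1.29 (SE). Its limma p was 0.0486 unadjusted and 0.340 adjusted over 98 miRNAs. In that fit 14 of 98 miRNAs (14.3%) had an unadjusted p under 0.05 and 1 (1.02%), hsa-miR-421, passed after adjustment. The authors' deposited table gives miR-10a a fold of 0.115, ischemia/reperfusion over sham. With undetected values placed at Ct 35, the log2 difference of miR-10a was -2.31 ± 1.19 (SE), with an adjusted limma p of 0.313. With undetermined wells placed at Ct 40 it was -2.36 ± 2.39 (SE), with an adjusted limma p of 0.652. In both fits the n of 4 per group includes the placed values. Sham mouse 1 carried much of the difference: without it the value was -2.07 with any Ct and -1.14 below Ct 35. With any Ct, ischemia/reperfusion mouse 1, which was above Ct 35, carried nearly as much, since the value without it was -2.20.

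miR-196a was measured by the hsa-miR-196a assay, the only assay of that name outside the passenger strand. It had Ct values of 34.8, 32.7 and 33.9 in ischemia/reperfusion mice 1, 3 and 4, against 31.7, 30.9 and 28.0 in sham mice 1, 3 and 4, and no Ct in mouse 2 of either group. The level on the log2 scale was -13.29, -11.12 and -12.02 in ischemia/reperfusion mice 1, 3 and 4, against -10.20, -10.73 and -9.19 in sham mice 1, 3 and 4. Among the mice with a Ct the groups did not overlap, as for 10 of 98 miRNAs (10.2%) with at least 3 Ct values in each group. The gap between ischemia/reperfusion mouse 3 and sham mouse 3 was 0.39 log2 units. Placed at Ct 35, sham mouse 2 would lie below ischemia/reperfusion mouse 3, and the groups would overlap.

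The mean level of miR-196a was -12.14 ± 1.09 in ischemia/reperfusion mice and -10.04 ± 0.78 in sham mice (SD, n = 3 each). The log2 difference of -2.10 ± 0.85 (SE) had an unadjusted limma p of 0.0439 and did not pass Benjamini-Hochberg adjustment over the 72 tested miRNAs (limma adjusted p = 0.316). The authors' deposited table gives it a fold of 0.233, ischemia/reperfusion over sham. With undetected values placed at Ct 35, the log2 difference of miR-196a was -1.68 ± 0.80 (SE), with an adjusted limma p of 0.307. Placing undetermined wells at Ct 40 gave -1.68 ± 2.03 (SE), with an adjusted limma p of 0.686. Among all 72, 10 (13.9%) had an unadjusted p under 0.05, all lower after ischemia/reperfusion, and 0 passed after adjustment (0%). By p, miR-196a had rank 10 of the 72. The median log2 difference of the 72 was -0.80, with 49 of 72 (68.1%) lower in ischemia/reperfusion mice.

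Mesenchymal and smooth muscle markers had lower means beside these miRNAs, as did 49 of all 72 tested miRNAs (68.1%). The endothelial marker miR-126-3p had a log2 difference of -1.59 ± 0.57 and miR-126-5p of 0.11 ± 0.60 (SE, n = 4 per group). Of 3 tested leukocyte assays 1 was lower and 2 higher (median 0.63), and the higher ones were both for miR-223. They were at 0.63 ± 1.00 (mmu) and 1.15 ± 1.13 (hsa), and miR-150 was at -1.62 ± 2.00 (SE, n = 4 per group). The adjusted limma p of these endothelial and leukocyte assays lay between 0.228 and 0.892. All 3 tested assays of mesenchymal markers had a lower mean in ischemia/reperfusion mice, with a median log2 difference of -2.65. The mmu-miR-214 assay was at -3.95 ± 1.17 (SE; 4 ischemia/reperfusion and 3 sham values) and miR-199a-3p at -2.65 ± 0.92 (SE, n = 4 per group), each with an adjusted limma p of 0.228. The hsa-miR-214 assay of the other card was at -0.86 ± 0.87 (SE, n = 4 per group). The smooth muscle marker miR-145, the 1 tested assay of its list, was at -2.09 ± 0.84 (SE, n = 4 per group). The adjusted limma p of hsa-miR-214 was 0.605 and that of miR-145 was 0.278. None passed after adjustment. The differences of mmu-miR-214, miR-199a-3p and miR-145 were about as large as those of miR-196a (-2.10) and of miR-10a below Ct 35 (-2.20), or larger. That of hsa-miR-214 was smaller, so the assays of miR-214 on the different cards did not give the same size. The part of these markers in the result was not tested.

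**Figure D2:**
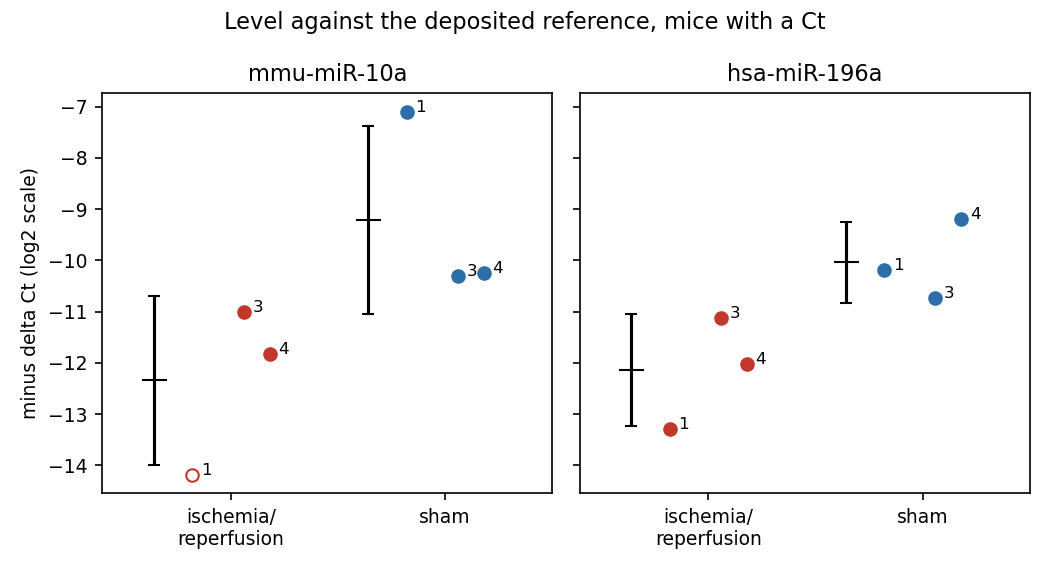
Level on the log2 scale (minus delta Ct against the deposited reference) of mmu-miR-10a and hsa-miR-196a in ischemia/reperfusion mice (left) and sham mice (right), mice numbered; bars are the mean and SD of the mice with a Ct (n = 3 each) and the open point is above Ct 35. The means are -12.34 and -9.21 for mmu-miR-10a and -12.14 and -10.04 for hsa-miR-196a, ischemia/reperfusion and sham in that order.

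**Figure D3:**
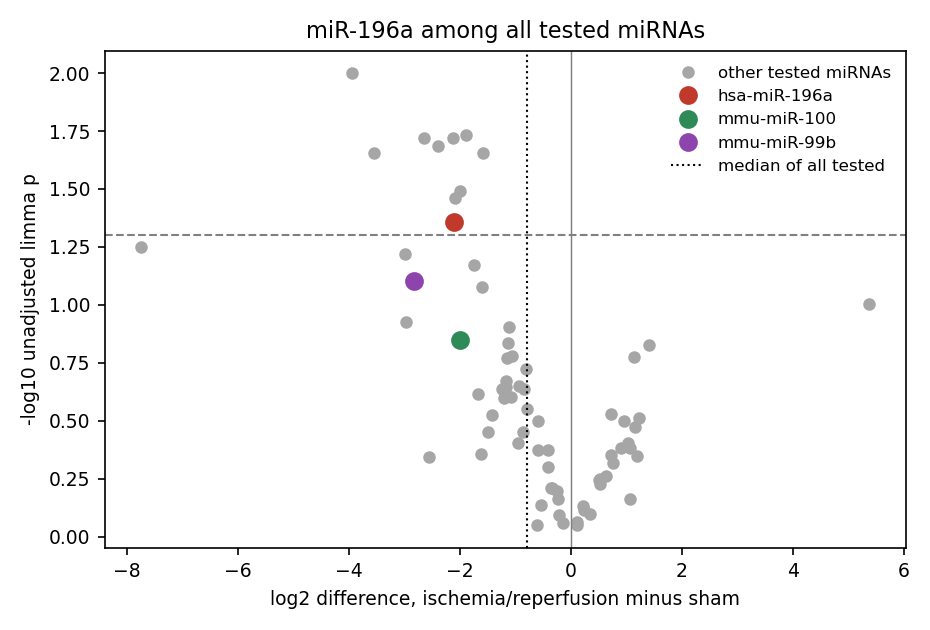
Log2 difference, ischemia/reperfusion minus sham (horizontal), against -log10 of limma's unadjusted probability (vertical) for the 72 tested miRNAs; the dashed line is the unadjusted threshold of 0.05 and the dotted line the median of all tested, -0.80. hsa-miR-196a at -2.10 lies in the group of 10 miRNAs past the dashed line, all on the lower side.

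The separation of the groups depended on the reference. Of the 98 miRNAs with at least 3 Ct values in each group, 10 (10.2%) had every ischemia/reperfusion value below every sham value against the deposited reference, miR-10a and miR-196a among them, and 0 (0%) had the reverse. Of the 9 with exactly 3 values in each group, as miR-10a and miR-196a have, 3 (33.3%) were separated in that direction. With 3 against 3 mice, an exact two-sided permutation test cannot give a p below 0.1, and both miRNAs were at 0.1. Against the mean of the always-detected miRNAs of the same card, both overlapped. The highest ischemia/reperfusion and lowest sham values were then -3.23 and -3.28 for miR-10a, and -6.12 and -6.36 for miR-196a, with an exact p of 0.2 each. With the control assays as reference, miR-10a overlapped (exact p = 0.6) and miR-196a did not (exact p = 0.1). These controls were Y1 and snoRNA135 on card A, for miR-10a, and snoRNA202 alone on card B, for miR-196a. The miRNAs were thus set against different control RNAs.

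The size of the difference moved with the reference as well. For miR-196a the log2 difference was -1.97 ± 1.03 against the mean of the always-detected miRNAs, -2.43 ± 1.02 against the control assays and -3.60 ± 1.24 without normalization (SE, 3 values per group), with an adjusted limma p between 0.123 and 0.616. For miR-10a below Ct 35, where the deposited reference gave -2.20, it was -1.14, -1.33 and -4.10 under the same references, with no test. With any Ct, where the deposited reference gave -3.13, it was -2.21, -2.55 and -5.00. The difference was negative in each of these cases. The mean reference Ct itself was 1.39 cycles higher after ischemia/reperfusion on card A, which holds the miR-10a assay. It was 1.02 cycles higher on card B, which holds the miR-196a assay. On card A it was 21.40 ± 0.80 against 20.01 ± 1.97 in sham mice (SD, n = 4 per group). On card B it was 21.90 ± 0.52 against 20.88 ± 1.79. The groups overlapped on both cards, and sham mouse 2 had the highest value of each, 22.44 and 23.03.

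A count that uses no reference gave overlapping groups for both. Among the 34 miRNAs of card A detected in all 8 mice, the number with a lower Ct than miR-10a was 34, 28 and 30 in ischemia/reperfusion mice 1, 3 and 4, against 24, 31 and 30 in sham mice 1, 3 and 4. Among the 20 such miRNAs of card B, the number with a lower Ct than miR-196a was 20, 18 and 20 in ischemia/reperfusion mice 1, 3 and 4, against 18, 18 and 14 in sham mice 1, 3 and 4. In ischemia/reperfusion mouse 1 both therefore had a higher Ct than the whole set of their card. This count was chosen after the data were seen.

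**Figure D4:**
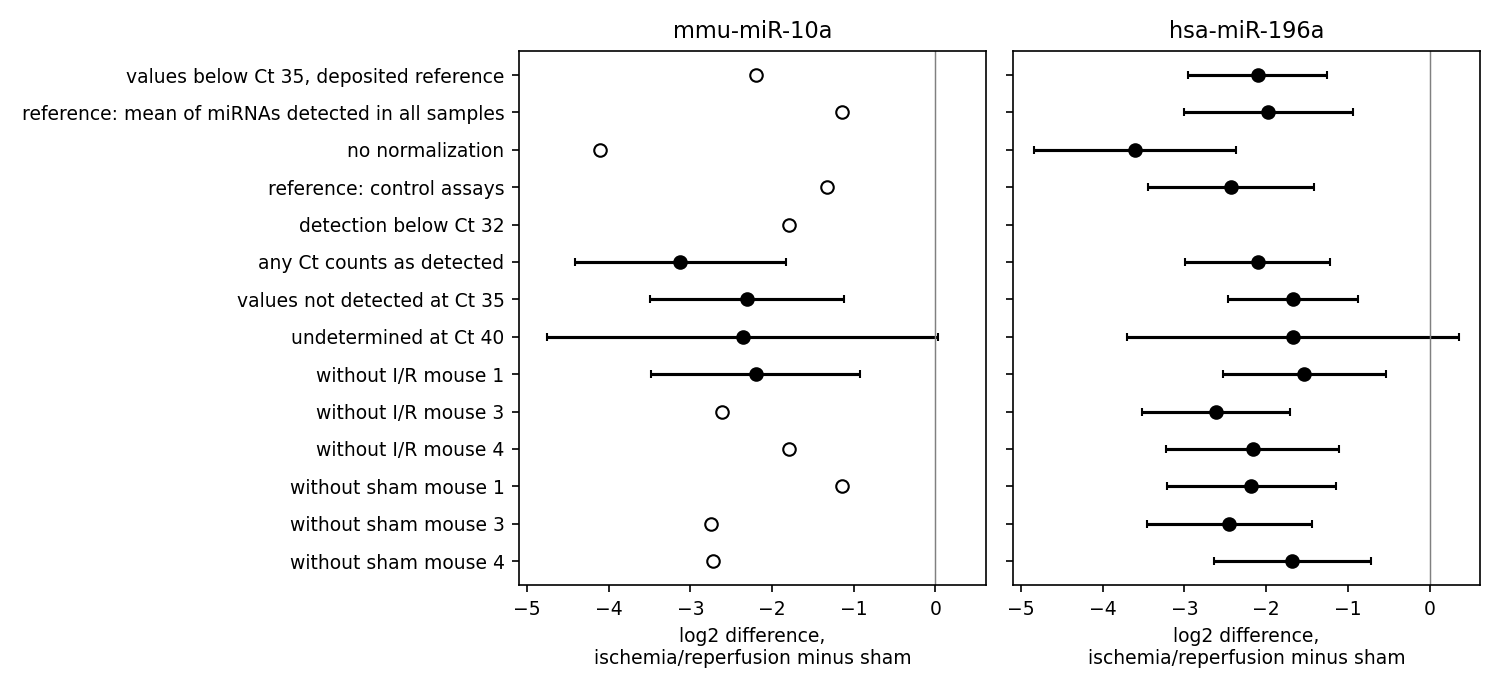
Log2 difference, ischemia/reperfusion minus sham, of mmu-miR-10a (left) and hsa-miR-196a (right) under other references, detection limits and with a mouse left out; filled points have a limma fit and bars are SE, open points are differences of means without a test. All points are negative, from -4.10 to -1.14 for mmu-miR-10a and from -3.60 to -1.53 for hsa-miR-196a.

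The pattern of wells with a Ct was shared by few assays. Of the 210 miRNA assays with a Ct in any mouse, 3 had a Ct in exactly mice 1, 3 and 4 of each group: miR-10a, miR-196a and miR-484. Of the 210, 87 had no Ct in mouse 2 of either group. Within the ischemia/reperfusion group, miR-10a and miR-196a had the same order, highest in mouse 3 and lowest in mouse 1. Within the sham group they differed, with miR-10a highest in mouse 1 and miR-196a highest in mouse 4.

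Likeness of the level across mice was measured as the root mean square distance of the centred log2 levels over the 6 mice with a Ct, where 0 is an identical pattern. This measure was chosen after the data were seen, since no member had a value in all 8 mice. Of 82 miRNAs compared, miR-100 was nearest to miR-10a at 0.46 log2 units, followed by miR-320 at 0.68 and miR-29c at 1.17, beside a median of 2.05. All are on card A like miR-10a, so these distances were the same against the mean of the always-detected miRNAs. miR-196a was nearest to miR-320 at 0.70, miR-126-3p at 0.77 and miR-26a at 0.80, beside a median of 1.78. Against the mean of the always-detected miRNAs its nearest were miR-145, miR-30e-3p and miR-191. The distance between miR-10a and miR-196a was 1.37, which placed miR-196a at rank 7 of 82 for miR-10a and miR-10a at rank 30 of 82 for miR-196a. miR-10a and miR-196a were measured on different cards, so their distance depends on the references of both. Against the mean of the always-detected miRNAs it was 1.85, with ranks of 26 and 41 of 82, beside medians of 2.19 for miR-10a and 1.86 for miR-196a.

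miR-100, miR-99a and miR-99b are sequence relatives of miR-10 outside the Hox clusters and are known to repress the kinase mTOR in human cells. Their RefSeq sequences are shown because miR-100, the nearest pattern to miR-10a, is also near it in sequence.
miR-100-5p: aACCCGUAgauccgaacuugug
miR-99a-5p: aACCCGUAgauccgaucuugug
miR-99b-5p: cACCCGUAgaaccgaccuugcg
Their shared seed, in capitals as above, differs from that of miR-10. miR-10a can be turned into miR-100 with 3 single-base changes, insertions or deletions, into miR-99a with 4 and into miR-99b with 6. The longest run that miR-10a shares with miR-100 is guagauccgaa, 11 bases. On GRCm38.p6 the mature sequences lie on the plus strand at chr9:41531437-41531458 for miR-100, chr16:77598940-77598961 for miR-99a and chr17:17830194-17830215 for miR-99b.

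miR-100 had levels on the log2 scale of -11.78, -7.05, -9.85 and -10.36 in ischemia/reperfusion mice 1 to 4, against -6.11, -8.77 and -8.42 in sham mice 1, 3 and 4, with no Ct in sham mouse 2. The groups overlapped through ischemia/reperfusion mouse 2. Within each mouse, miR-10a lay below miR-100 by a log2 difference of -2.41, -1.16 and -1.47 in ischemia/reperfusion mice 1, 3 and 4, against -0.99, -1.52 and -1.83 in sham mice 1, 3 and 4. This within-card difference does not depend on the reference, and it averaged -1.68 ± 0.65 in ischemia/reperfusion mice and -1.45 ± 0.43 in sham mice (SD, n = 3 each). Against miR-99b it was -1.69 ± 4.36 and -2.08 ± 2.54 (n = 3 each). Against miR-99a it was 0.11 ± 2.11 (n = 2) and -0.40 ± 1.15 (n = 3). Against miR-320, which is not among the listed relatives, it was -2.25 ± 0.42 and -1.65 ± 0.98 (n = 3 each). Among the listed relatives, the SD of this difference was smallest against miR-100 and largest against miR-99b in both groups. The sequence of miR-320 was not compared with that of miR-10a. Whether nearness in sequence goes with nearness in pattern was not tested. The miR-10a and miR-100 assays parted in ischemia/reperfusion mouse 2, where miR-100 had a Ct of 29.4, its lowest of that group, and miR-10a had none. Ct values of different assays also reflect the efficiency of each assay, so the difference within a mouse gives no ratio of the RNAs.

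**Figure D5:**
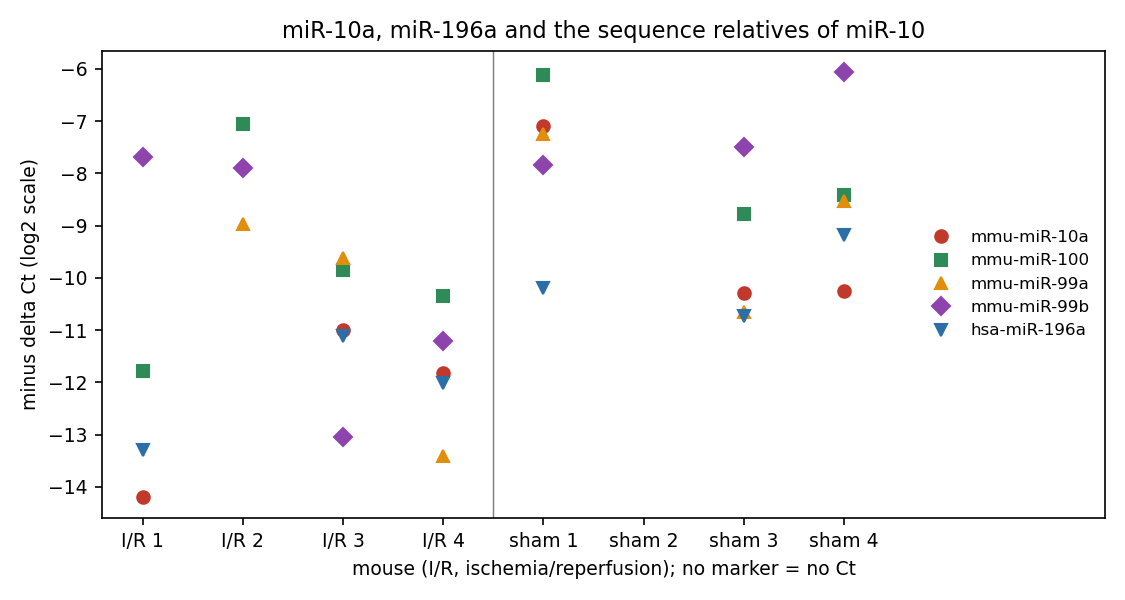
Level on the log2 scale (minus delta Ct) of mmu-miR-10a, hsa-miR-196a and the miR-10 relatives mmu-miR-100, mmu-miR-99a and mmu-miR-99b in 4 ischemia/reperfusion mice (left) and 4 sham mice (right); each marker is a mouse and a missing marker is a well with no Ct. mmu-miR-10a follows mmu-miR-100 at a distance of between 0.99 and 2.41 log2 units below it in the 6 mice where both have a Ct, while ischemia/reperfusion mouse 2 has mmu-miR-100 and no mmu-miR-10a.

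Of the 3 relatives, 2 were tested and 0 passed after adjustment. Both had lower mean levels in ischemia/reperfusion mice. Their median log2 difference was -2.41, beside -0.80 for all 72 tested miRNAs. miR-100 was at -1.99 ± 1.22 and miR-99b at -2.83 ± 1.40 (SE; 4 ischemia/reperfusion and 3 sham values), with an adjusted limma p of 0.510 and 0.401. miR-99a had a Ct below 35 in 2 of 4 ischemia/reperfusion mice and 3 of 4 sham mice and was not tested. With undetected values placed at Ct 35, miR-100 was at -0.79, miR-99b at -1.47 and miR-99a at -1.72. The median of the 3 was then -1.47, beside -1.10 for all 114 miRNAs in that fit. None of the 3 had a Ct in sham mouse 2, the mouse in which miR-10a and miR-196a were also undetermined.

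The other listed products of the Hox clusters gave no signal. Of 6 listed, 5 had an assay: miR-615-3p and miR-615-5p, the arms of the miRNA encoded in Hoxc5, and the passenger strands miR-10a#, miR-10b# and miR-196a#. All 5 were undetermined in all 8 mice.

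A list of miRNAs that, like miR-10a, act on adhesion, inflammation or angiogenic signalling in endothelial cells was examined beside it. Of 12 listed, 11 had an assay, 7 assays were tested and 0 passed after adjustment, with 4 lower and 3 higher and a median log2 difference of -0.14. miR-222, which restrains the growth response of endothelial cells to stem cell factor, was at -2.12 ± 0.74. miR-126-3p, which represses the adhesion molecule VCAM1, was at -1.59 ± 0.57, with miR-92a, an inhibitor of vessel growth, at -0.93 ± 0.71 (SE, n = 4 per group). Their adjusted limma p was 0.228, 0.228 and 0.552. miR-31, a repressor of E-selectin in human cells, was at -0.14 ± 0.84 and the partner arm miR-126-5p at 0.11 ± 0.60 (SE, n = 4 per group). miR-155, an inflammatory miRNA, was at 0.23 ± 0.66 (SE, n = 4 per group), and miR-181a was at 0.53 ± 0.95 (SE; 3 ischemia/reperfusion and 4 sham values). The adjusted limma p of these 4 lay between 0.734 and 0.892. Against the mean of the always-detected miRNAs, the median of the 7 turned to 0.52, with 3 lower and 4 higher, and without normalization it was -1.53, with 7 of 7 lower. With undetected values at Ct 35, 11 assays had a value, 8 lower and 3 higher, with a median of -0.93 beside -1.10 for all 114 miRNAs in that fit. These included miR-146a at -1.45, miR-146b at -1.67 and miR-221 at -1.17, which had too few detected mice for the main test. The direction of the list as a whole therefore depended on the reference and on the treatment of undetected values.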

How the data were processed

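Cells were sorted from collagenase-digested renal artery, and their RNA (mirVana kit) was assayed by FAM-labelled real-time PCR, per the labels' protocols. The authors deposited Ct values, delta Ct values on the log2 scale (Ct minus 1 reference per sample and card) and a fold ratio, 2 raised to the sham mean minus the experimental mean of delta Ct; per the file headers, these are the 3 kinds of value. Within a sample and card, Ct minus delta Ct was constant within 7.11e-15 cycles over wells with a Ct. The identity of the reference RNA was not given in the sources used here. Mouse numbers in the labels mark separate mice, which were taken as biological replicates.

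Delta Ct was multiplied by -1, so that higher means more RNA and 1 unit is a doubling at full PCR efficiency. Values at or above Ct 35 were missing and repeated wells were averaged. In 13 wells, none of them of miR-10 or miR-196, the deposited delta Ct had no Ct behind it, and these were missing here. miRNAs detected in at least 3 mice of each group (72) were fitted together with limma 3.58.1 in R 4.3.3 (lmFit, eBayes), two-sided, with Benjamini-Hochberg adjustment at 0.05. The script was tested on simulated data. Named miRNAs are the assays chosen by name, the tested members of the related lists and the 3 nearest patterns. Members, lists and tests were chosen with earlier results of these data known, so no list counts as independent evidence. The planned exact test for members with values in all 8 mice, and the planned difference between members on 1 card, had no member to apply to. Sequences and positions come from RefSeq on GRCm38.p6. Precision was judged from the spread between mice, since PCR gives no read depth. Figures were drawn with matplotlib 3.10.9 in Python 3.11.15.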

Additional observations from a re-analysis of the deposited data

How the results depend on the processing

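The log2 difference of miR-196a was negative under the 27 alternatives that gave it a value, with an adjusted limma p above 0.05 in each that was fitted. It lay between -3.60 and -1.53, and between -2.61 and -1.53 when each mouse was left out. Below Ct 32 it had no ischemia/reperfusion value. miR-10a was negative under each alternative that gave it a value, between -2.74 and -1.14 when each mouse was left out below Ct 35 and between -3.79 and -2.07 with any Ct. Below Ct 35 it was -2.20 with the deposited reference, -1.14 with the always-detected miRNAs, -1.33 with the control assays and -4.10 without normalization. At a limit of Ct 32, miR-10a was detected in 1 ischemia/reperfusion mouse and miR-196a in 0, against 3 sham mice each. Over all miRNAs, 0 passed the limma threshold. The count was 1 with any Ct, with values not detected at Ct 35 and with undetermined wells at Ct 40 (hsa-miR-421 each time), and 1 without both mice numbered 2 (miR-199a-3p), an alternative chosen after seeing the data. Leaving out each mouse gave 0 to 1, with miR-1896 passing without sham mouse 1 and miR-199a-3p without sham mouse 2. The number at an unadjusted p under 0.05 was 10, against 3 with the always-detected miRNAs as reference, 5 with the control assays and 21 without normalization. Lower and higher miRNAs were then 41 and 31, 46 and 26, and 65 and 7, against 49 and 23 with the deposited reference. The median of the endothelial list turned to 0.52 against the always-detected miRNAs; the cause was not tested. Whether same-numbered mice were paired could not be told. Their deviations from the group mean had correlations of -0.38, -0.15, 0.02 and -0.25 over 54 miRNAs. Such a correlation does not register a shift of a whole sample or a loss of detection. Mouse 2 had the fewest detected miRNAs in both groups, 82 after ischemia/reperfusion and 75 after sham surgery. With the replicate block, miR-196a stayed at -2.10 and its adjusted limma p was 0.397. The block left the count of miRNAs passing at 0. The exact permutation test per miRNA with Benjamini-Hochberg adjustment gave 0. All 3 ischemia/reperfusion Ct values of miR-196a were above 32, close to the detection limit.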

Other observations

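A rat-named assay of the same family, rno-miR-196c, was outside the naming rule and was chosen after its values were seen. It had no Ct in the 4 ischemia/reperfusion mice, and among the sham mice it had a Ct of 33.8 in mouse 1 and 27.4 in mouse 4 and none in mice 2 and 3. The table used for mouse sequences was not matched to it by name. In level on the log2 scale against the deposited reference, these sham values were -13.17 and -9.44. It was not tested, since no ischemia/reperfusion mouse had a value.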
